A study of Homo sapiens with 5 samples.

Results

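The mitosis and spindle genes are 50 genes whose products carry a cell from late G2 phase through mitosis to cytokinesis. They were taken by gene symbol from a list, and all 50 were among the 27189 genes of the deposited tables. HT1080 is an established human fibrosarcoma cell line, here embedded in gels of type I collagen at 2 mg per ml for 24 h. Gene expression was measured by RNA-seq in 5 conditions with 1 library each, so no difference could be set against a spread between replicates, and none was tested. LD was seeded at 10 cells per cubic mm and received no cytokine. The IL-6 and IL-8 libraries came from the same low density with recombinant IL-6 or recombinant IL-8 added, and RM from the same low density with IL-6 and IL-8 added together at a ratio of 5 to 2. HD was seeded at 50 cells per cubic mm without added cytokine. The study asked how cell density and these 2 cytokines, which the cells also secrete, act on tumour cells in a three-dimensional matrix. All 5 conditions share the cell line, the collagen and the time, and each library pools the RNA of all cells in a matrix.

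Entry into mitosis is driven by cyclin B bound to CDK1, which CDC25 phosphatases switch on and which PLK1 and the Aurora kinases reinforce. The spindle checkpoint then holds the anaphase-promoting complex, a ubiquitin ligase activated by CDC20, until every kinetochore is attached to microtubules. When the checkpoint is satisfied the ligase destroys securin and cyclin B, sister chromatids part, and motor proteins and scaffolds at the spindle midzone position the cleavage furrow. Most of these genes are transcribed only in cells approaching division, and in total RNA from many cells a smaller share of dividing cells and less RNA per dividing cell cannot be told apart.

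The promoters of many such genes carry a short element, the cell cycle genes homology region with the letters TTTGAA, which is bound by the DREAM and MYB-MuvB complexes, and one or more CCAAT boxes, which are bound by NF-Y. RefSeq promoters on GRCh38.p14, running from 250 bases before to 50 bases after the start of a gene, were found by symbol for 42 of the 50 members. TTTGAA was present on either strand in 30 of the 42 (71.4%), against 9.02% of the promoters of 8242 tested genes and 15.4% of all 27305 promoters in the table. CCAAT was present on either strand in 31 of 42 (73.8%), against 36.4% of tested genes and 35.7% of all promoters, and both motifs were present in 24 of 42 (57.1%), against 3.77% and 6.08%. The 2 motifs can overlap by at most 1 base, and matches were counted whether or not they did. In 18 of the 42 the TTTGAA lay within the 50 bases before the start. These matches describe letters and not measured binding. The following windows are each the 150 bases before the start, read 5′ to 3′ on the gene's strand. They are examples, and the choice does not follow a ranking of members by size or read support of their differences. CCNB2, for one, had 3 reads in RM. CDC25B and TACC3, whose promoters held 0 TTTGAA and 0 CCAAT, had their lowest low-density level in RM and are not shown. The windows therefore do not represent the motif content of all members. Capitals mark each TTTGAA and each CCAAT box, whichever strand it reads on.
CCNB2, chr15:59104996-59105145, plus strand: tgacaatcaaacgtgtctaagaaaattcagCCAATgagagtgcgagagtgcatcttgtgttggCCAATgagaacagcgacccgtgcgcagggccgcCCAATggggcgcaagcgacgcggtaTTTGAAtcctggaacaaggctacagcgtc
CKS1B, chr1:154974531-154974680, plus strand: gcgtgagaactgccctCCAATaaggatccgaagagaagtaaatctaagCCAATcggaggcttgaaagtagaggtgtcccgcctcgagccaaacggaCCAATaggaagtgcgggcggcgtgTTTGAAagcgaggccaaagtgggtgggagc
PLK1, chr16:23678739-23678888, plus strand: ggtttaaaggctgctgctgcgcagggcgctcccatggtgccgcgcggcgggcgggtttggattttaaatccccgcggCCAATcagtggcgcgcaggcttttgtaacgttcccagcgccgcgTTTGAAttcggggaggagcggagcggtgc
CDC20, chr1:43358831-43358980, plus strand: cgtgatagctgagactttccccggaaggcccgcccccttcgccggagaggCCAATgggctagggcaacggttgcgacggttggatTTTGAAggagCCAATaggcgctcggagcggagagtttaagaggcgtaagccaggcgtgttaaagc
CENPA, chr2:26785906-26786055, plus strand: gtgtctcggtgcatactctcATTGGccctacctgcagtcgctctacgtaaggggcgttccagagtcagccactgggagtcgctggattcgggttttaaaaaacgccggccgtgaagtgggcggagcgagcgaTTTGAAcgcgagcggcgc
KIF20A, chr5:138178962-138179111, plus strand: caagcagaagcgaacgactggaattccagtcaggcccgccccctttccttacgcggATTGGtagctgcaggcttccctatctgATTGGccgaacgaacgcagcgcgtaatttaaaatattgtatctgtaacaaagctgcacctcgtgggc
AURKB, chr17:8210226-8210375, minus strand: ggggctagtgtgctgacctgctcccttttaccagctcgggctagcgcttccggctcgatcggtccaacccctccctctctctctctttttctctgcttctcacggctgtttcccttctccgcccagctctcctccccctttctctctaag

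CCNB2 and CKS1B each showed 3 CCAAT boxes followed by 1 TTTGAA just before the start, PLK1 and CENPA showed 1 of each, and CDC20 showed 1 TTTGAA between 2 CCAAT boxes. KIF20A showed 2 CCAAT boxes on the reverse strand and no TTTGAA, and AURKB showed neither motif in its window.

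The libraries held between 926376 (HD) and 7118545 (LD) counted reads, of which the ribosomal entry RNA5-8S5 took 51.5% in HD and 76.9 to 79.6% in the others. Levels are therefore given as TPM, transcripts per 1e+06 corrected for length, rescaled with RNA5-8S5 left out, and read ratios are taken over the reads outside RNA5-8S5 (449661 in HD, 1100967 to 1645539 in the others). Exact intervals on reads cover counting error alone, and the reads come from amplified cDNA without molecular identifiers. The HD library stood apart. Of 386 olfactory receptor genes, which fibrosarcoma cells should hardly transcribe, 240 had a read in HD and 14 to 37 in the other libraries. The summed level of 8 mesenchymal markers was 1365 TPM in HD and 7943 to 11660 TPM elsewhere, with VIM (vimentin) at 483 TPM in HD and 2728 to 5188 TPM elsewhere. In HD 5 of 6 epithelial and 5 of 6 blood markers had a read, at sums of 58.6 and 318 TPM, against at most 1.29 and 6.13 TPM in the low-density libraries. The source label names connective tissue epithelial cells, but the 8 mesenchymal markers all had a read in every library and the epithelial markers were near 0 at low density. The part of the HD background in the HD values below was not tested.

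Together the 50 members held 5329 reads in LD, 3153 with IL-6, 2885 with IL-8, 2292 in RM and 491 in HD. As a share of reads outside RNA5-8S5 this was 0.324% in LD (95% Clopper-Pearson interval 0.315 to 0.333), 0.286% with IL-6 (0.276 to 0.297), 0.257% with IL-8 (0.248 to 0.267), then 0.160% for RM (0.153 to 0.166) and 0.109% for HD (0.0998 to 0.119). No 2 of these intervals overlapped. CKS1B alone held 11.5% of the member reads in LD and 4.88% with IL-6, and the shares were not recomputed without it. The summed level followed the same order, from 2757 TPM in LD through 2180, 2021 and 1079 TPM in IL-6, IL-8 and RM to 932 TPM in HD. The median member had 57 reads in LD, 40 with IL-6, 24 with IL-8, 19.5 in RM and 6 in HD, and 32 of the 50 had under 10 reads in HD. All 50 had at least 1 read in each low-density library, while UBE2C and PTTG1 had none in HD.

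**Figure D1:**
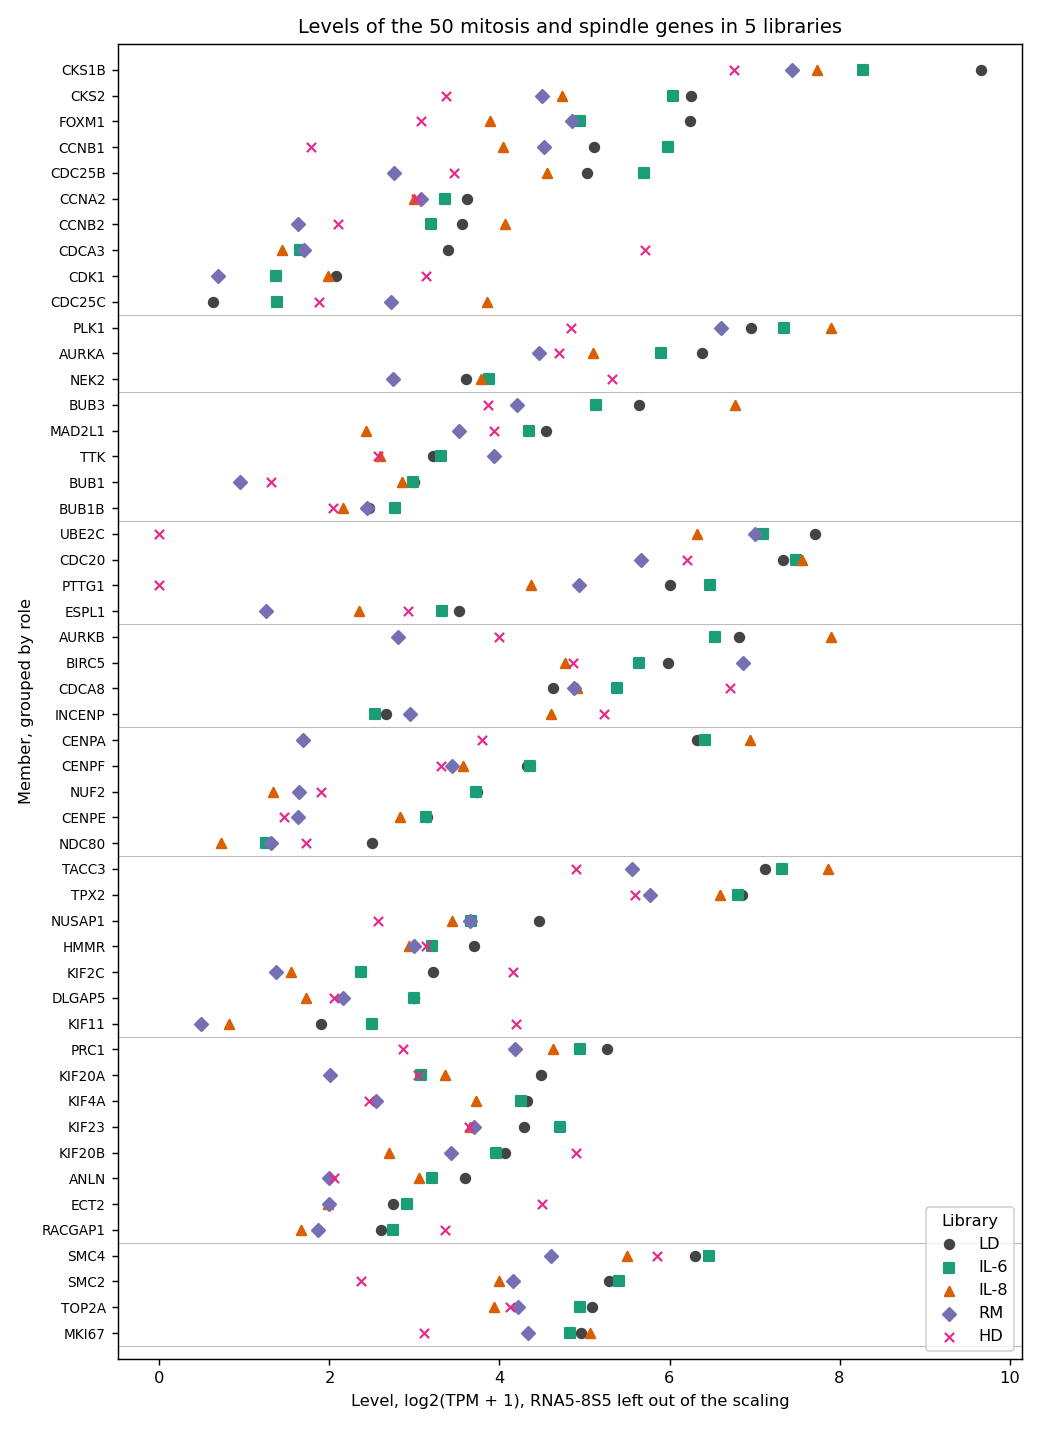
Level of each of the 50 members in each library, as log2(TPM + 1) with RNA5-8S5 left out of the scaling. Each point is 1 library and members are grouped by role. CKS1B in LD, at 812 TPM, is the highest point, and AURKB and CENPA show the widest gaps between RM and the other low-density libraries.

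Libraries were compared by their difference in log2(TPM + 1), a scale that compresses the changes of low genes, and a member was counted as lower or higher when it differed by at least 1 log2 unit. Of the 50 members, 48 passed the filter of a mean of 5 reads over the 5 libraries, along with 11998 genes in all. CDK1, the kinase that cyclin B activates, and NDC80, which binds microtubules at the kinetochore, did not pass, with 1 to 6 reads and 1 to 11 reads per library. In RM against LD 27 of the 48 were lower, against 30.6% of tested genes, and 1 was higher, against 9.35%. In IL-8 against LD 20 were lower (23.1% of tested genes) and 4 higher (11.4%), and in IL-6 against LD 4 were lower (8.96%) and 0 higher (13.3%). In HD against LD 28 were lower (32.2%) and 7 higher (41.1%). RM was lower than IL-6 in 23 members (34.2%) and higher in 2 (8.96%), and it was lower than IL-8 in 17 (23.1%) and higher in 3 (14.8%). When the exact interval of the read ratio had also to exclude 1, 3 members were lower and 0 higher in IL-6 against LD (6.78% and 9.29% of tested genes), 18 and 4 in IL-8 against LD (18.2% and 9.26%), 26 and 1 in RM against LD (26.2% and 8.15%), and 27 and 6 in HD against LD (28.7% and 36.2%). Under that rule RM had 20 lower and 1 higher against IL-6 (27.5% and 7.48%) and 16 lower and 2 higher against IL-8 (18.7% and 11.7%). At this scaling the members' share of lower genes at 1 log2 unit exceeded that of all tested genes in RM against LD, IL-8 against LD, HD against LD and both comparisons of RM with a single cytokine, and was not above it in IL-6 against LD.

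The median difference of the members was -1.08 for RM, -0.76 for IL-8, -0.06 for IL-6 and -1.36 in HD, each against LD. The medians of all tested genes were -0.47, -0.28, 0.06 and 0.24. Against the single cytokines the members' median in RM was -0.96 (IL-6) and -0.27 (IL-8), beside -0.60 and -0.18 over all tested genes. Summed member reads were 2.03-fold lower in RM than in LD (95% interval 1.93 to 2.13), 1.26-fold lower with IL-8 (1.2 to 1.32), 1.13-fold lower with IL-6 (1.08 to 1.18) and 2.97-fold lower in HD (2.70 to 3.26). These ratios are taken over the reads outside RNA5-8S5, and their intervals leave out the choice of scaling. Divided by median-ratio factors, the summed reads with IL-8 were not lower than in LD. The 5 comparisons without HD share libraries, so their values are not independent. With median-ratio size factors, which place the median of all genes near 0, 15 members were lower and 4 higher in RM against LD, beside 17.3% and 21.0% of tested genes. The counts became 9 and 7 in IL-8 against LD (16.0% and 18.2% of tested genes), 4 and 1 in IL-6 against LD (10.4% and 13.5%), 10 and 4 in RM against IL-6 (18.2% and 19.3%) and 12 and 5 in RM against IL-8 (20.4% and 20.7%). In IL-8 against LD and in both comparisons of RM with a single cytokine, the members' share of lower genes was then close to that of all tested genes. With TMM factors 38 members were lower and 4 higher in HD against LD, while the shares of all tested genes moved to 45.7% lower and 32.3% higher. The median of all tested genes in HD against LD, 0.24 in the TPM setting, was -0.13 with CPM, -0.69 with TMM and -0.26 over genes with a mean of 5 reads in the 4 low-density libraries, a filter added after seeing the data that gave 37.2% of genes lower and 31.8% higher. The members' median stayed below that of all tested genes in RM against LD under each of these settings. The sign of single members near 0 did not always hold in RM against LD, since CCNB1 went from -0.60 to 0.12 and UBE2C from -0.71 to 0.03 with median-ratio factors.

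**Figure D2:**
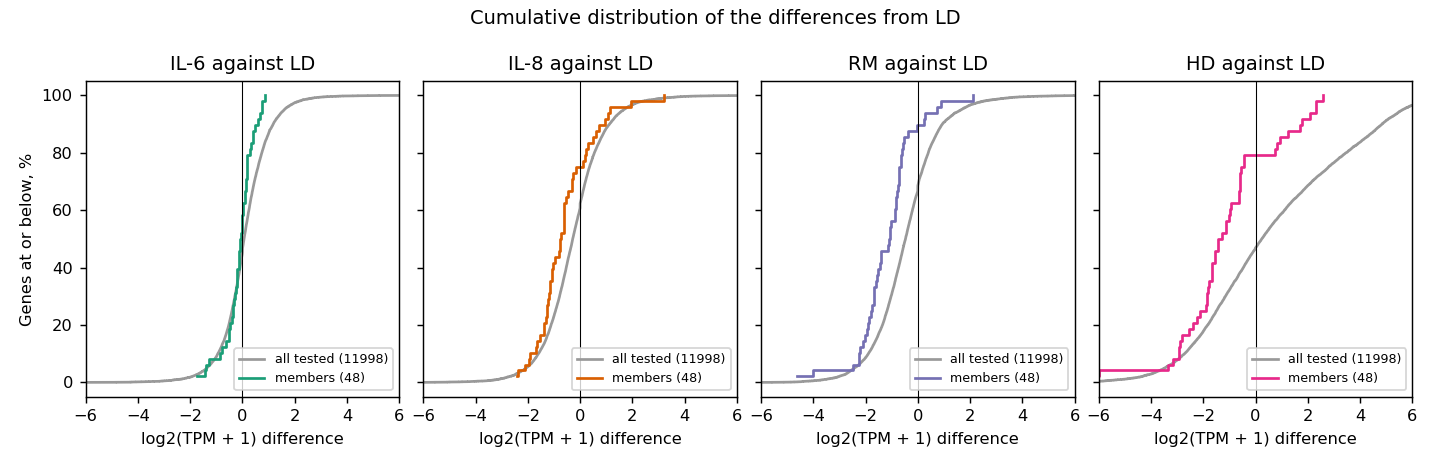
Cumulative share of genes (vertical axis, percent) at or below each log2(TPM + 1) difference from LD (horizontal axis), with 1 panel per library compared and 1 curve each for the 48 members and the 11998 tested genes, drawn between -6 and 6. The members' curve lies to the left of the other in the RM, IL-8 and HD panels, where the medians are -1.08, -0.76 and -1.36, and near it in the IL-6 panel.

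Among the 10 genes of the mitotic entry switch, summed reads were 3.04-fold lower in RM than in LD (2.68 to 3.45), 2.68-fold lower with IL-8 (2.35 to 3.06), 1.63-fold lower with IL-6 (1.46 to 1.81) and 4.72-fold lower in HD (3.68 to 6.15). CKS1B and FOXM1 held 611 and 266 of the 1140 list reads in LD and 154 and 71 of the 469 with IL-6. The ratios to LD therefore rest largely on these genes. With IL-6, 3 of the 9 tested members were lower by 1 log2 unit (8.96% of tested genes) and 0 higher (13.3%). By reads CCNB1 and CDC25B were at 1.85 and 1.75 times LD with IL-6 (1.34 to 2.56 and 1.29 to 2.37). CKS1B, a small subunit of cyclin-dependent kinase complexes that also serves the SKP2 ubiquitin ligase, was at 812 TPM in LD, 310 with IL-6, 212 with IL-8, 173.4 in RM and 107 in HD. LD stood above every other library, and the read ratio was 2.65-fold lower with IL-6 (2.22 to 3.19), 3.65-fold with IL-8 (2.98 to 4.50) and 4.26-fold in RM (3.51 to 5.21). CKS1B made up 11.5% of all member reads in LD and 5.45% in RM. FOXM1, the transcription factor of the G2/M programme, was at 74.7 TPM in LD, 29.9 with IL-6, 13.8 with IL-8, 27.8 in RM and 7.42 in HD. Its lowest low-density level was in IL-8, where reads were 5.03-fold lower than in LD (3.54 to 7.34), and IL-6 and RM differed by only -0.10 log2 units. CKS2, the paralogue of CKS1B, was at 75.3 TPM in LD, 64.6 with IL-6, 25.6 with IL-8, 21.6 in RM and 9.31 in HD. Unlike CKS1B it was close to LD in IL-6 (-0.22) and lower in IL-8 (-1.52) and RM (-1.76).

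The mitotic cyclins did not move together. CCNB1 (cyclin B1) was at 33.7 TPM in LD, 62.2 with IL-6, 15.5 with IL-8, 21.9 in RM and 2.45 in HD, so the 2 single-cytokine libraries bracketed LD. CCNB2 (cyclin B2), whose promoter window with 3 CCAAT boxes is printed above, was at 10.8, 8.12 and 15.7 TPM in LD, IL-6 and IL-8 and at 2.08 TPM in RM, on 17, 9, 17 and 3 reads. Its reads were 4.94-fold lower in RM than in LD, with a wide interval of 1.43 to 26.3. CDC25B, a phosphatase that activates CDK1, was at 31.6 TPM in LD, 51.1 with IL-6, 22.5 with IL-8, 5.78 in RM and 10.1 in HD. RM was the lowest, 4.82-fold under LD by reads (2.76 to 9.0) and 8.42-fold under IL-6 (4.86 to 15.6). CDC25C, of the same phosphatase family, went the other way, with 1 read in LD, 2 with IL-6, 18 with IL-8, 10 in RM and 1 in HD. It was the only member that reached 1 log2 unit or more above LD in RM in the TPM setting (2.10), on a read ratio of 11.5 with an interval of 1.63 to 498. CCNA2 (cyclin A2) stayed between 6.94 and 11.2 TPM in all 5 libraries, and CDCA3, which helps to degrade the mitosis inhibitor WEE1, had 12 reads in LD and 3 or 4 in each of the cytokine libraries. These 2 genes were chosen after their values were seen.

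The 3 kinases PLK1, AURKA and NEK2 differed from one another. PLK1, which drives entry, spindle assembly and cytokinesis, was at 124 TPM in LD, 162 with IL-6, 238 with IL-8, 96.4 in RM and 27.8 in HD. IL-8 was the highest, at 2.04 times LD by reads (1.74 to 2.40), and RM was lower than IL-8 by 2.37-fold (1.99 to 2.83). RM lay near LD at -0.36 log2 units, which turned to 0.39 with median-ratio factors. AURKA, the centrosomal Aurora kinase, was at 82.2 TPM in LD, 58.7 with IL-6, 33.3 with IL-8, then 21.0 in RM and 25 in HD. The level stepped down from LD through IL-6 and IL-8 to RM, and the reads were 2.27-fold lower in IL-8 (1.68 to 3.09) and 3.43-fold lower in RM (2.50 to 4.80) than in LD. NEK2, a kinase that separates centrosomes and was chosen after its values were seen, had 24 reads in LD, 15 with IL-6, 13 with IL-8, 8 in RM and 14 in HD.

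Of the 5 spindle checkpoint genes, 3 were lower in RM than in LD and 0 higher, against 30.6% and 9.35% of tested genes. BUB3, which docks the BUB kinases at kinetochores, was at 48.8 TPM in LD, 34.2 with IL-6, 108 with IL-8, 17.5 in RM and 13.6 in HD. RM was 3.94-fold under LD (2.54 to 6.34) and 5.27-fold under IL-8 (3.38 to 8.52). The difference of IL-8 from LD was 1.13 log2 units by TPM and a read ratio of only 1.34 (1.01 to 1.76), so TPM and reads differ in size for this gene. BUB1, a checkpoint kinase, was at 6.94, 6.91 and 6.21 TPM in LD, IL-6 and IL-8 and at 0.934 TPM in RM, on 24, 16, 15 and 3 reads. MAD2L1, the inhibitor that binds CDC20, was at 22.4 TPM in LD, 19.4 with IL-6, 4.40 with IL-8, 10.5 in RM and 14.3 in HD, lowest in IL-8 rather than in RM. TTK (MPS1), the kinase that starts checkpoint signalling, had the opposite order in RM, at 8.31 TPM in LD, 8.93 with IL-6, 5.05 with IL-8, 14.3 in RM and 4.93 in HD. Its reads in RM were 1.93 times those of LD (1.15 to 3.30) and 2.98 times those of IL-8 (1.51 to 6.42). BUB1B, named after its values were seen, was level in LD and RM at 4.52 and 4.42 TPM.

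Among the 4 genes of the metaphase-to-anaphase step, summed reads were 2.34-fold lower in RM than in LD (1.99 to 2.78) and 1.91-fold lower in RM than in IL-8 (1.59 to 2.3). CDC20, the activator of the anaphase-promoting complex, was at 160 TPM in LD, 179 with IL-6, 188 with IL-8, then 49.9 in RM and 73.0 in HD. The 3 libraries without both cytokines lay close together, and RM was under each of them, by 2.92-fold (2.26 to 3.81) in reads for LD, 3.26-fold (2.49 to 4.29) for IL-6 and 3.63-fold (2.79 to 4.76) for IL-8. ESPL1, the separase protease that cuts cohesin, was at 10.5 TPM in LD, 9.01 with IL-6, 4.09 with IL-8, 1.39 in RM and 6.61 in HD. With IL-6 its reads were 2.16-fold under LD (1.32 to 3.66), beside -0.20 log2 units by TPM, so TPM and reads differ in size for this gene. RM was again the lowest, 6.88-fold under LD by reads (3.43 to 15.7). PTTG1, the securin that holds separase inactive, was at 63.1 TPM in LD, 88.0 with IL-6, 19.6 with IL-8, 29.6 in RM and 0 in HD, with the lowest low-density level in IL-8. UBE2C, the ubiquitin-conjugating enzyme of the complex, was at 209 TPM in LD, 136 with IL-6, 79.3 with IL-8, then 128 in RM and 0 in HD. In HD its level was at least 14.0-fold lower than in LD and that of PTTG1 at least 3.73-fold lower, taking 3 reads as the floor of the HD library.

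The chromosomal passenger complex joins the kinase AURKB to INCENP, survivin (BIRC5) and borealin (CDCA8), and its genes split. AURKB was at 112 TPM in LD, 91.4 with IL-6, 238 with IL-8, 6.02 in RM and 14.9 in HD, on 131, 73, 182, 6 and 3 reads. IL-8 alone stood at 2.04 times LD by reads (1.62 to 2.57), whereas RM was 19.0-fold under LD (8.51 to 52.8), 15.9-fold under IL-6 (6.94 to 44.6) and 38.8-fold under IL-8 (17.5 to 107). BIRC5 was at 62.1 TPM in LD, 48.7 with IL-6, 26.2 with IL-8, 116 in RM and 28.1 in HD. It had the reverse order of AURKB in every low-density comparison with RM, with 2.16 times the reads of LD (1.76 to 2.65), 2.52 times those of IL-6 (1.97 to 3.24) and 4.41 times those of IL-8 (3.25 to 6.08). BIRC5 went from 2.81% of member reads in LD to 12.3% in RM, the largest share of any member in that library. INCENP was at 5.35 TPM in LD, 4.81 with IL-6, 23.4 with IL-8, 6.72 in RM and 36.5 in HD, and its reads in IL-8 were 3.03 times those of LD (1.59 to 6.05). CDCA8, chosen after its values were seen, ranged from 23.8 to 40.5 TPM at low density and stood at 103.6 TPM in HD. With IL-6 its reads were 2.64 times those of LD (1.74 to 4.03), beside 0.74 log2 units by TPM, so TPM and reads differ in size for CDCA8. Summed over the 4 genes, the reads in RM were 1.19 times those of LD (1.02 to 1.39), and BIRC5 alone held 282 of the 347 reads in RM.

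**Figure D3:**
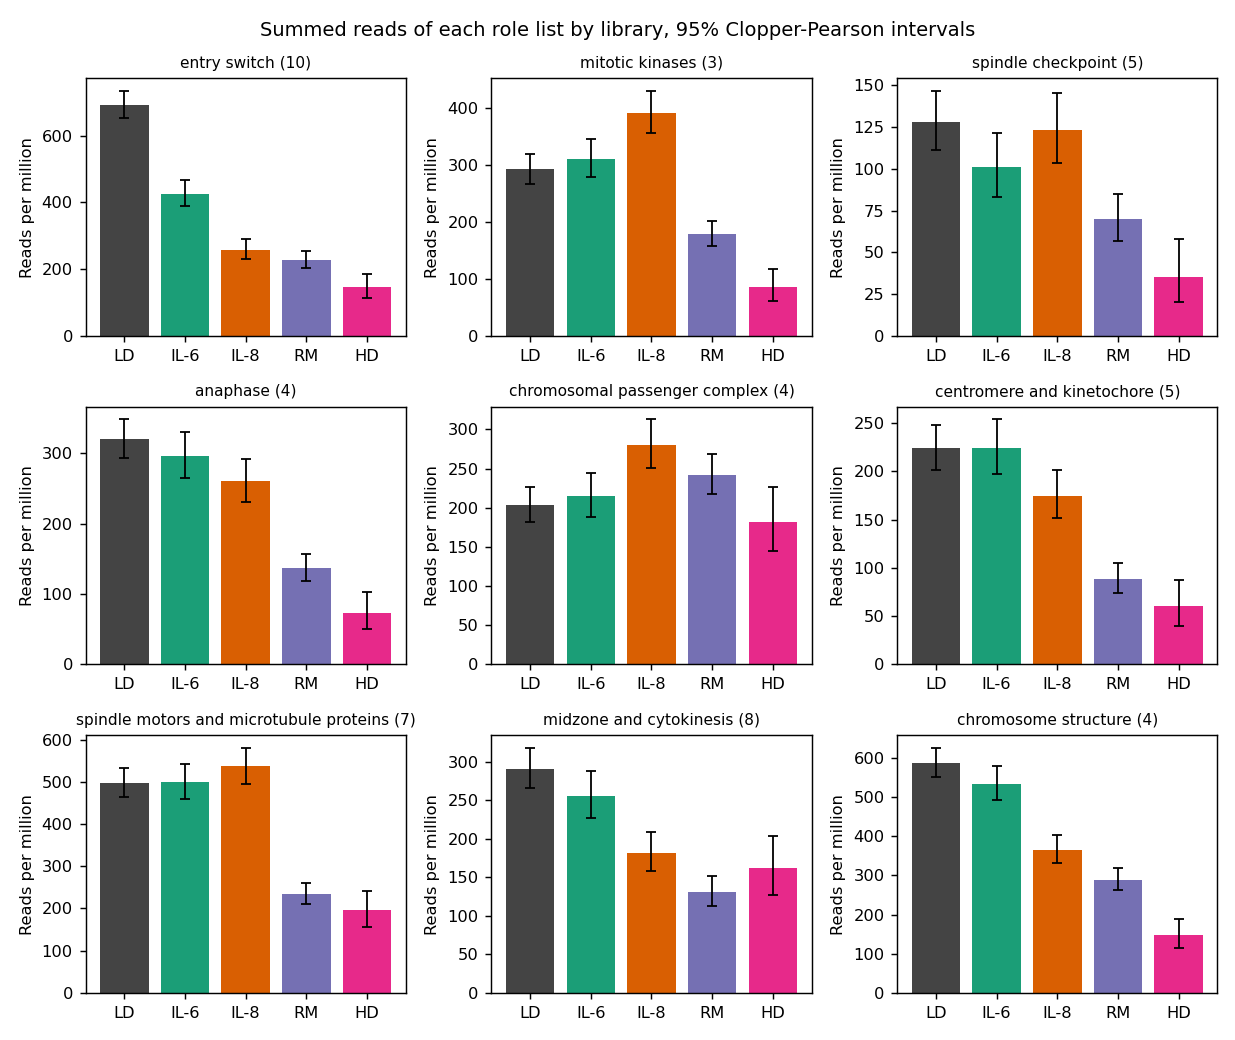
Summed CPM (reads per 1e+06 reads outside RNA5-8S5) for each of the 9 role lists (number of members in parentheses), with 1 bar per library and 95% Clopper-Pearson intervals of counting error. RM stands below LD in every list except the chromosomal passenger complex, where it is at 242 against 203 CPM.

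Centromere and kinetochore genes had 2.53-fold fewer summed reads in RM than in LD (2.06 to 3.12). CENPA, the histone H3 variant that marks centromeres, was at 79.3 TPM in LD, 84.4 with IL-6, 123 with IL-8, 2.23 in RM and 12.8 in HD, on 64, 46, 71, 2 and 3 reads. The drop in RM was the largest of all members in the TPM setting against LD, IL-6 and IL-8 alike (-4.64, -4.73 and -5.26), with read ratios 27.9-fold lower (7.41 to 235), 30.0-fold lower (7.84 to 255) and 45.4-fold lower (12.1 to 382). CENPE, a kinetochore motor, was at 7.83 TPM in LD, 7.80 with IL-6, 6.09 with IL-8, 2.10 in RM and 1.77 in HD. CENPF, a large G2/M kinetochore protein, was at 19.0 TPM in LD, 19.5 with IL-6, 10.9 with IL-8, 9.84 in RM and 8.93 in HD, and so was nearly equal in IL-8 and RM. NUF2, a partner of NDC80 in the microtubule-binding complex, had 25 reads in LD, 16 with IL-6, 2 with IL-8, 4 in RM and 1 in HD. Its reads were 8.51-fold lower in IL-8 than in LD (2.12 to 74.2) and 5.45-fold lower in RM (1.88 to 21.5).

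Spindle motors and microtubule-binding proteins had 2.13-fold fewer summed reads in RM than in LD (1.87 to 2.42), while IL-6 and IL-8 lay at ratios whose intervals held 1. TPX2 and TACC3 held 424 and 254 of the 820 list reads in LD and 257 and 300 of the 601 with IL-8. By member, 4 of 7 were lower than LD in IL-8 and 4 of 7 in RM (23.1% and 30.6% of tested genes). In both, 0 were higher (11.4% and 9.35%), and the medians were -1.02 in IL-8 and -1.08 in RM. TPX2, which activates AURKA and nucleates microtubules near chromatin, was at 115 TPM in LD, 111 with IL-6, 95.9 with IL-8, then 53.7 in RM and 47.2 in HD. The 3 libraries without both cytokines were within 0.26 log2 units, and RM was 1.95-fold under LD by reads (1.64 to 2.32). Over the scalings the difference of RM from LD ran from -1.09 to -0.36 log2 units. TACC3, which stabilises kinetochore fibres, was at 139 TPM in LD, 159 with IL-6, 231 with IL-8, 46.2 in RM and 28.9 in HD. RM was 2.70-fold under LD (2.10 to 3.51) and 4.68-fold under IL-8 (3.66 to 6.05). KIF11, the motor that pushes spindle poles apart, had 14 reads in LD, 16 with IL-6, 3 with IL-8, 2 in RM and 18 in HD, and KIF2C, a kinesin that depolymerises microtubules, had 22, 8, 4, 4 and 9. NUSAP1 (21.0 TPM in LD, then 11.7, 9.83, 11.6 and 4.96 TPM) and DLGAP5 (6.96 TPM in LD, then 6.98, 2.3, 3.48 and 3.14 TPM), both of which bundle or stabilise spindle microtubules, were lower than LD in IL-8 by at least 1 log2 unit but not in RM. HMMR, a microtubule-binding protein named after its values were seen, kept within 6.66 to 12.0 TPM.

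At the midzone and in cytokinesis, summed reads were 2.22-fold lower in RM than in LD (1.87 to 2.64) and 1.60-fold lower in IL-8 (1.35 to 1.89). KIF20A, the motor that carries the passenger complex to the midzone, was at 21.5 TPM in LD, 7.41 with IL-6, 9.24 with IL-8, 3.03 in RM and 7.22 in HD. At the TPM scaling LD stood at least 1 log2 unit above every other library, and the RM reads were 6.45-fold lower (3.32 to 14.0). Its paralogue KIF20B was at 15.8 TPM in LD, 14.5 with IL-6, 5.50 with IL-8, 9.80 in RM and 28.9 in HD, lowest in IL-8. Its HD level was above LD by TPM only, since the read ratio was 1.06 (0.653 to 1.68), and the difference from LD ran from -0.49 to 1.06 log2 units over the scalings. KIF4A, a midzone kinesin, was at 19.0 TPM in LD, 18.0 with IL-6, 12.2 with IL-8, 4.83 in RM and 4.51 in HD. ANLN (anillin), a scaffold of the cleavage furrow, was at 11 TPM in LD, 8.24 with IL-6, 7.28 with IL-8, then 2.97 in RM and 3.15 in HD. At the TPM scaling both stood in RM at least 1 log2 unit below each of the other low-density libraries. PRC1, which cross-links antiparallel microtubules, was at 37.3 TPM in LD, 29.9 with IL-6, 23.8 with IL-8, 17.2 in RM and 6.28 in HD, and KIF23, of the centralspindlin complex, was at 18.5, 25.1, 11.6, 12.0 and 11.5 TPM. RACGAP1 and ECT2, which control RhoA at the furrow and were named after their values were seen, were within 1 log2 unit of LD in all 3 cytokine libraries.

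The 4 genes of mitotic chromosome structure had 2.03-fold fewer summed reads in RM than in LD (1.81 to 2.28) and 1.61-fold fewer in IL-8 (1.43 to 1.81). SMC2 and SMC4, the paired ATPases of condensin, did not keep the same order. SMC2 was at 38.0 TPM in LD, 41.3 with IL-6, 14.9 with IL-8, 16.9 in RM and 4.16 in HD, and SMC4 at 77.7 TPM in LD, 87.5 with IL-6, 44.4 with IL-8, 23.4 in RM and 56.8 in HD. SMC2 was lower by at least 1 log2 unit in IL-8 and in RM, SMC4 in RM but not in IL-8 (-0.79). TOP2A, the topoisomerase that untangles sister chromatids, was at 33.0 TPM in LD, 29.9 with IL-6, 14.3 with IL-8, 17.6 in RM and 16.5 in HD. MKI67 (Ki-67), the coat protein of mitotic chromosomes used as a proliferation marker, was at 30.1 TPM in LD, 27.5 with IL-6, 32.4 with IL-8, 19.2 in RM and 7.61 in HD. Its reads were 1.71-fold lower in RM than in LD (1.43 to 2.04), and its TPM difference of -0.63 did not reach 1 log2 unit. Over the scalings that difference ran from -0.77 to -0.17.

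**Figure D4:**
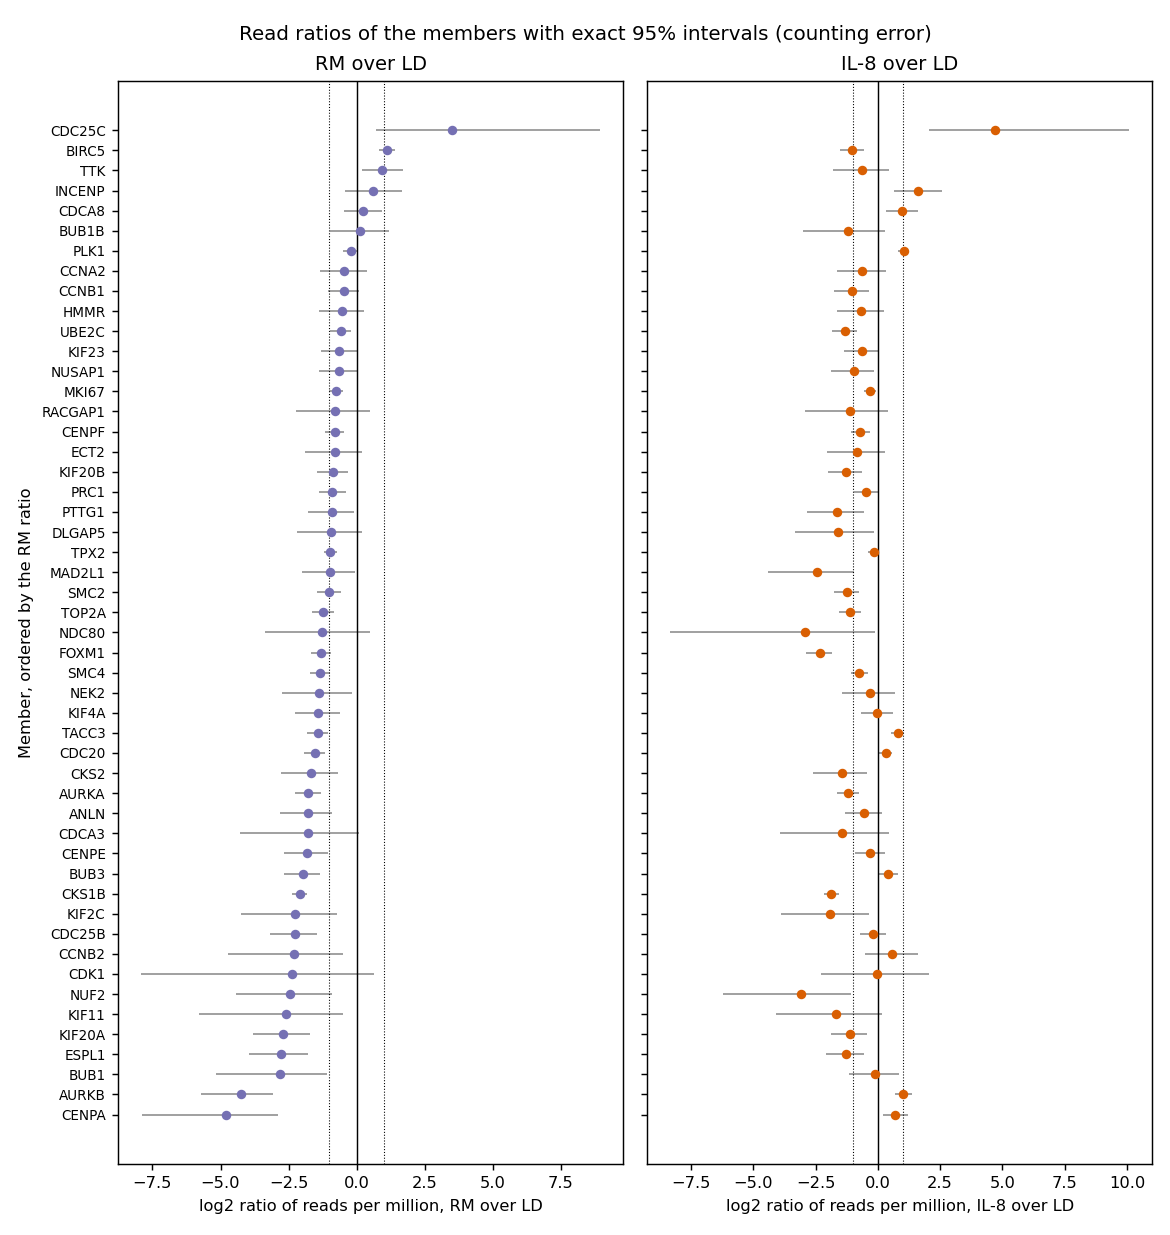
Read ratio to LD of each member (log2 scale, reads outside RNA5-8S5), with 1 panel per library and exact 95% intervals of counting error. Members are ordered by the RM ratio, from CENPA and AURKB, 27.9-fold and 19.0-fold lower, to BIRC5 and CDC25C, at 2.16 and 11.5 times LD.

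At the TPM scaling RM was lower than LD, IL-6 and IL-8 each by at least 1 log2 unit in 12 of the 48 tested members, a pattern that 11.4% of tested genes showed. The 12 were CCNB2, CDC25B, BUB1, CDC20, ESPL1, AURKB, CENPA, CENPE, TACC3, KIF20A, KIF4A and ANLN, which belong to 7 of the 9 role lists. Over the scalings only CCNB2, BUB1, AURKB, CENPA and CENPE kept that margin in each comparison. CDC20, for example, came to -0.93 against LD, and ESPL1 came to 0.00 against IL-6. In 0 members was RM higher than each by that margin, against 4.59% of tested genes. LD was higher than each cytokine library by at least 1 log2 unit in 4 members, CKS1B, FOXM1, CDCA3 and KIF20A, against 3.8% of tested genes. Over the scalings FOXM1 came to -0.69 in RM and KIF20A to -0.76 in IL-8, each against LD. CDCA3 had only 12 reads in LD, and the interval of its read ratio in IL-6 against LD (0.117 to 1.64) held 1. Among the 4 low-density libraries RM was the lowest in 25 of 48 members and IL-8 in 20, against 43.7% and 30.0% of tested genes. LD was the lowest in 2 members and IL-6 in 1, against 16.1% and 10.3% of tested genes. These orders are at the TPM scaling.

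The effect of adding IL-8 can be read in 2 pairs of libraries that have none in common, IL-8 against LD without IL-6, and RM against IL-6 with it. Lower by at least 1 log2 unit in both were 9 of 48 members (18.8%), against 9.13% of tested genes, namely CCNB1, CKS2, AURKA, PTTG1, ESPL1, NUF2, KIF11, KIF20A and SMC2. CCNB1 fell by 1.07 without IL-6 and by 1.46 with it, PTTG1 by 1.64 and by 1.54, and NUF2 by 2.40 and by 2.08. Over the scalings only NUF2 stayed lower by at least 1 log2 unit in both pairs. CCNB1, for example, came to -0.66 and -0.69. The medians of all tested genes were themselves below 0 in both pairs at the TPM scaling, at -0.28 and -0.60. Past the threshold in opposite directions were 2 members, AURKB (1.08 without IL-6 and -3.72 with it) and BIRC5 (-1.21 and 1.23), against 6.7% of tested genes. Across the 48 members the 2 differences had a Pearson correlation of -0.004, and across all tested genes of 0.029, both across genes, which are not independent replicates. The matching pairs for IL-6, which are IL-6 against LD and RM against IL-8, were lower in both for 1 member, KIF20A, against 2.77% of tested genes, and in opposite directions for 0 members, against 5.28%. RM lay at least 1 log2 unit under the sum of the 2 single-cytokine differences in 15 of 48 members, a share near the 29.8% of tested genes. It lay at least 1 log2 unit above that sum in 8 members, beside 2100 of 11998 tested genes. The median departure was -0.17 for the members and -0.28 for all tested genes. AURKB and CENPA were among the 15, and BIRC5 and FOXM1 among the 8.

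**Figure D5:**
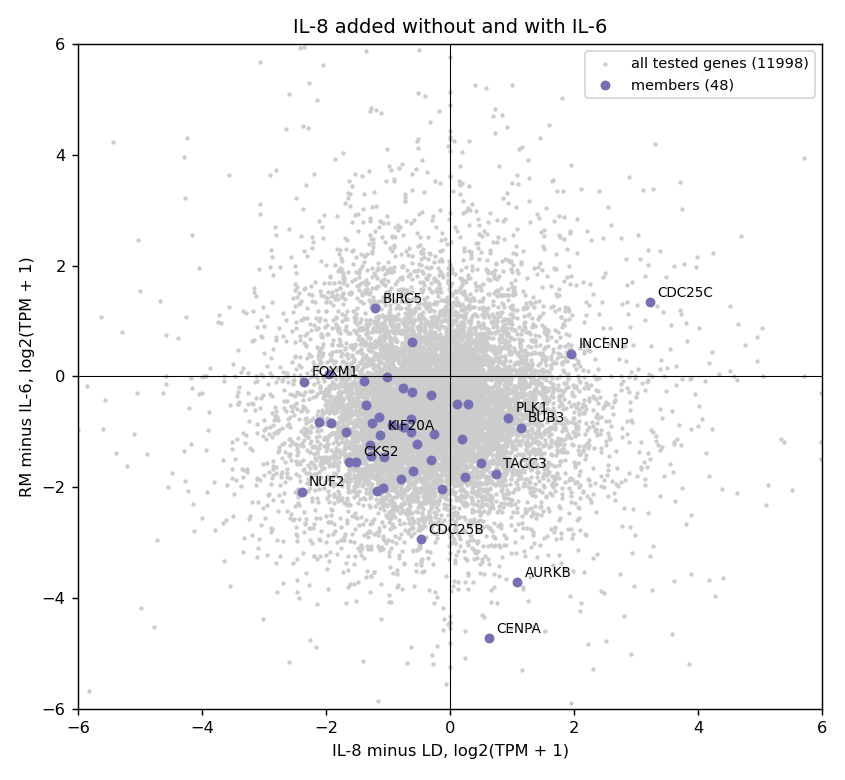
Difference made by IL-8 without IL-6 (horizontal axis, IL-8 minus LD) and with IL-6 (vertical axis, RM minus IL-6) on the log2(TPM + 1) scale. Each point is a gene, the members stand over the other tested genes, and genes beyond 6 units are not drawn. AURKB lies at 1.08 and -3.72 and BIRC5 at -1.21 and 1.23, in opposite quadrants.

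Among the 28 members lower in HD were the 7 with the most reads in LD, while SMC4, the next, was within 1 log2 unit (-0.45). CCNB1 had 1 read in HD and 72 in LD, a ratio 19.7-fold lower with an interval of 3.42 to 788. FOXM1 was 12.1-fold lower by reads (5.49 to 33.3), CKS1B 10.4-fold lower (6.37 to 18.4), PLK1 6.03-fold (3.40 to 11.8), MKI67 5.65-fold (3.52 to 9.63) and TPX2 3.13-fold (2.24 to 4.51). Higher in HD by at least 1 log2 unit, with the interval of the read ratio excluding 1, were 6 members, against 36.2% of tested genes. These were INCENP, CDCA8, CDCA3, KIF11, NEK2 and ECT2, on 14 to 52 reads, with CDCA8 at 5.01 times LD (3.23 to 7.82) and INCENP at 3.90 times (1.81 to 8.48). In that library the olfactory receptor genes had a median of 5.54 TPM and a 90th percentile of 28.6 TPM, and 10 of the 50 members stood above the latter while 16 stood at or below the former. Of those named here, INCENP, CDCA8, CDCA3 and NEK2 were at 36.5, 103.6, 51.3 and 39.0 TPM in HD, and KIF11 and ECT2 at 17.3 and 21.7 TPM.

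Beyond the 50, a fixed list of 117 further mitotic genes, covering the anaphase-promoting complex, kinetochores, condensin and cohesin, and other kinases and spindle proteins, had 98 tested members. In RM against LD 35 of the 98 were lower (30.6% of tested genes) and 11 higher (9.35%), with a median of -0.69. In IL-8 against LD 26 were lower (23.1%) and 14 higher (11.4%), with a median of -0.44. In IL-6 against LD 10 were lower (8.96%) and 11 higher (13.3%), and in HD against LD 33 were lower (32.2%) and 30 higher (41.1%), with medians of 0.02 and -0.15. These counts lay near the shares of all tested genes, apart from the fewer higher genes in HD. Their summed share of reads was 0.509% in LD, 0.457% with IL-6, 0.632% with IL-8, 0.501% in RM and 0.639% in HD. UBE2S, which extends ubiquitin chains for the anaphase-promoting complex, held 2019, 879, 2852, 1674 and 24 of these reads, and without it the shares were 0.386%, 0.377%, 0.377%, 0.384% and 0.634%. Without UBE2S the 4 low-density libraries had overlapping intervals. The shares of the 50 members were not recomputed without CKS1B, their best counted gene in LD, so no contrast with them is drawn. The condensin and cohesin genes had 10 of 18 lower and 1 higher in RM (30.6% and 9.35% of tested genes), with a median of -1.24. PDS5B, a cohesin regulator, was at 11.5 TPM in LD and 2.05 TPM in RM, and WAPAL, which releases cohesin, at 194 and 10.6 TPM. The WAPAL reads were only 2.57-fold lower (1.93 to 3.47), so TPM and reads differ widely in size for this gene. Of the anaphase-promoting complex genes 3 of 15 were lower, a share below that of all tested genes, among them CDC27, a core subunit, at 100 TPM in LD and 22.0 TPM in RM, and FZR1, its second activator, at 16.2 and 5.16 TPM.

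The counts that follow are set against 30.6% of tested genes lower and 9.35% higher in RM than in LD, and all are of small lists. Inner kinetochore genes had 2 of 12 lower and 4 higher, with CENPT, which links centromeric chromatin to the NDC80 complex, at 33.1 TPM in LD and 86.4 TPM in RM. Outer kinetochore genes had 5 of 12 lower and 1 higher, with ZWILCH at 28.4 and 5.52 TPM and PMF1 at 68.1 and 50.0 TPM. Among other kinases and regulators 4 of 15 were lower and 3 higher, and CCNF (cyclin F), which marks mitotic proteins for destruction, was at 15.7 TPM in LD, 24.8 with IL-6, 43.9 with IL-8, 65.4 in RM and 7.00 in HD. TFDP1, the partner of E2F factors, was at 28.0 TPM in LD and 4.35 TPM in RM. Of the other spindle and cytokinesis genes 11 of 26 were lower and 1 higher, with MAPRE1 (EB1), which tracks growing microtubule ends, at 30.3 and 3.59 TPM and ASPM, a spindle pole protein, at 15.5 and 2.80 TPM.

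Members with and members without TTTGAA in the promoter both had a median below 0 in RM against LD. Of 28 tested members with it, 15 were lower in RM than in LD, with a median of -1.05, and of 12 tested members without it 8 were lower, with a median of -1.54, against 30.6% of all tested genes. AURKB and KIF20A, whose windows above show no TTTGAA, were among the latter. Across all tested genes with a promoter the medians were -0.61 for 743 genes with the motif and -0.52 for 7499 without. The groups of members are small and were not tested against each other.

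Some members share sequence with other genes, so that reads could have been divided between them. In GENCODE 29 transcripts, 23 of the 50 had no 50-base window in common with another gene, and 7 shared at least 10% of their windows. These were NUSAP1 (68.0%) and PRC1 (63.9%), mainly with overlapping entries, SMC4 (33.5%, with TRIM59 and IFT80), CKS1B (21.3%, with the pseudogenes CKS1BP2 and CKS1BP3), FOXM1 (20.01%, with ITFG2), CDCA3 (16.8%, with GNB3) and KIF4A (15.1%, with KIF4B). The levels of these 7 are uncertain to that extent, and whether strand was used in counting is not given in the sources used here. AURKB, CENPA, BIRC5 and CDC25B are not among the 7.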

How the data were processed

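RNA was converted to cDNA from an oligo-dT primer, amplified as a whole pool and sequenced from tagmented libraries. The submitters' processing notes name CASAVA 1.4, Bowtie2 2.3.1, RSEM 1.2.25 and FastQC, and the builds GRCh37 and hg19. For each gene and library the authors deposited 2 values, a read count in whole numbers and a TPM, and the annotation is not given in the sources used here. The deposited TPM values are corrected for transcript length and library total. They were rescaled here to 1e+06 without RNA5-8S5, because this entry took most reads in every library.

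Groups came from the sample titles. Genes with a mean of at least 5 reads over the 5 libraries were compared as log2(TPM + 1), and 1 log2 unit was the threshold. Ratios of counts carry exact conditional binomial 95% intervals, and shares carry Clopper-Pearson intervals. The floor of 3 reads was 1.82 to 2.72 CPM at low density and 6.67 in HD. No test or p-value was computed. The members and lists were chosen with earlier results of these data known. Named members were the 2 with the most reads in each role list, those past 1 log2 unit with an interval excluding 1 in any comparison without HD, those without a read in HD, and the paralogue pairs CKS1B and CKS2, CCNB1 and CCNB2, KIF20A and KIF20B, AURKA and AURKB, and SMC2 and SMC4. The other mitotic genes named were the 2 largest RM differences per list with at least 50 reads in LD.

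Alternatives were CPM, RNA5-8S5 kept, median-ratio and TMM factors (edgeR 4.0.16), pseudocounts of 0.1 and 5, no filter, at least 10 reads in all 5 libraries, a threshold of 2, and reads drawn down to 449661 per library. A filter on the 4 low-density libraries was added after seeing the data. Promoters came from RefSeq on GRCh38.p14 and were matched by symbol. Scripts were tested on simulated data. The software was R 4.3.3 and Python 3.11.15 with pandas 2.3.3, numpy 2.4.6, matplotlib 3.10.9 and scipy 1.17.1.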

Additional observations from a re-analysis of the deposited data

Results flagged for a closer look

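AURKB and BIRC5, which sit in the same passenger complex, moved in opposite directions when IL-8 was added without and with IL-6. AURKB differed by 1.08 log2 units in IL-8 against LD and by -3.72 in RM against IL-6. BIRC5 differed by -1.21 and by 1.23 in the same comparisons. They drew attention because each passed 1 log2 unit with opposite signs in 2 pairs of libraries that share no library. They were 2 of 48 members, against 6.7% of all tested genes, and with 1 library per condition the difference between the pairs was not tested.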

How the results depend on the processing

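No paired analysis was possible because each condition has 1 library, and for the same reason no replicate could be left out. Depth limits the low genes, most of all in HD. The members' median in RM against LD was below 0 under every alternative. Counts of members past the threshold moved by over 1.5 times as follows, with the cause not tested except where fewer genes, a higher threshold or a larger pseudocount reduce a count by construction.

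In IL-6 against LD, higher members numbered 1 with CPM, median-ratio factors, TMM factors or a pseudocount of 0.1 and 4 with reads drawn down, and lower members 1 with at least 10 reads in all 5 libraries (which leaves 15 members), 0 with a threshold of 2 and 7 with reads drawn down. In IL-8 against LD, lower members numbered 9 (median-ratio), 11 (pseudocount 5), 5 (10 reads) and 3 (threshold 2), and higher members 7 (median-ratio), 1 (10 reads) and 1 (threshold 2). In RM against LD, lower members numbered 15 (median-ratio), 6 (10 reads) and 8 (threshold 2), and higher members 2 (CPM), 4 (median-ratio), 3 (TMM), 0 (pseudocount 5) and 0 (10 reads). In HD against LD, lower members numbered 9 (10 reads) and 12 (threshold 2), and higher members 4 (TMM), 3 (10 reads) and 4 (threshold 2). In RM against IL-6, lower members numbered 10 (median-ratio), 11 (TMM), 15 (pseudocount 5), 5 (10 reads) and 7 (threshold 2), and higher members 4 (median-ratio), 1 (pseudocount 5), 1 (10 reads), 0 (threshold 2) and 4 (drawn down). In RM against IL-8, lower members numbered 9 (pseudocount 5), 4 (10 reads) and 5 (threshold 2), and higher members 5 (CPM), 5 (median-ratio), 5 (TMM), 1 (pseudocount 5), 1 (10 reads), 1 (threshold 2) and 5 (drawn down).

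Of 1177 values recomputed for named members past 1 log2 unit, 1174 kept their sign and 1031 stayed past 1. Part of this agreement was fixed by construction. The filters leave a member's difference unchanged, and the pseudocounts cannot turn its sign. INCENP in RM against IL-8 reversed from -1.66 to 0.16 with reads drawn down. The filter added after seeing the data changed none of the 12 counts.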
